A study of Mus musculus with 2 samples.

Results

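The 9 genes described here encode the NF-E2 related (CNC) factors Nfe2, Nfe2l1, Nfe2l2 and Nfe2l3, the repressors Bach1 and Bach2, and the small Maf proteins Maff, Mafg and Mafk. They were followed in ATAC-seq, which cuts open chromatin with a transposase, of common myeloid progenitors from adult male C57BL/6J mice aged 5 to 6 weeks. The study holds 2 libraries of 1 group, each from 50000 cells, with no second condition. Both libraries carry the same donor label, and the labels do not say whether the cells came from separate animals, so differences between the replicates may be technical. Regions were taken from the conservative list of peaks that passed a threshold on the irreproducible discovery rate (IDR), a measure of how well peak ranks repeat, on chromosomes 1 to 19 of mm10. Overlapping peaks were merged, and each merged region was given the summit and the signal of its strongest peak. A start region came within 1 kb of any annotated transcript start of one of the 9 genes. A distal region had its summit further away, with a start of one of these genes as its nearest protein-coding start within 100 kb. This gave 75 regions, 20 start and 55 distal, out of 65789 in the list. Regions are numbered by their position along the chromosome, so "Bach2 distal 1" is the first distal region of Bach2. The assignment by nearest start is a convention and does not show which gene a region acts on.

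CNC and Bach proteins are basic leucine zipper factors that bind DNA as pairs with a small Maf protein. The pairs recognise related sites, known as NF-E2 sites, Maf recognition elements or antioxidant response elements, in which a core that AP-1 factors also bind is flanked by GC. Small Maf proteins have no activation domain of their own, so the partner decides whether the pair activates, as with the CNC factors, or represses, as with Bach proteins. In blood, Nfe2 is known for megakaryocyte maturation, platelet release and globin genes, Nfe2l2 (Nrf2) for the response to oxidants, Bach1 for repression of heme-regulated genes and Bach2 for B cell development.

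All 9 genes had at least 1 start region, in a list where 63.5% of 20780 protein-coding genes had one. In the IDR-thresholded list of replicate 1 alone all 9 again had one (59.0% of all genes), and in that of replicate 2 alone 8 did (54.5% of all genes), Mafg being the gene without. The start regions were mostly of low signal within the list. Their median signal percentile, the share of regions in the list at or below a value, was 25.3, against 56.7 for all 16860 start regions of protein-coding genes. Their median width was 518 bp, against 722 bp. The 55 distal regions had a median signal percentile of 34.9, against 46.9 for all 41448 distal regions. The 41448 leave out regions within 1 kb of a start of any protein-coding gene. This leaves out 1 of the 55, Maff distal 2.

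The genes differed in how much open chromatin lay around them. Bach2 had 24 distal regions and Bach1 had 14, while Nfe2l2 had 6, Nfe2l3 and Mafk 3 each, Nfe2 and Maff 2 each, Mafg 1 and Nfe2l1 0. In the lists of single replicates Bach2 had 16 in replicate 1 and 14 in replicate 2, Bach1 10 in each, Nfe2l2 6 and 4, Nfe2l3 and Mafk 2 in each and Mafg 1 in each, while Nfe2 and Maff had 0 in both. In the conservative list the median over the 9 genes was 3 and the mean 6.11, against a median of 1 and a mean of 2.02 over all genes. Of all genes, 9 had more distal regions than Bach2 and 157 more than Bach1.

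**Figure D1:**
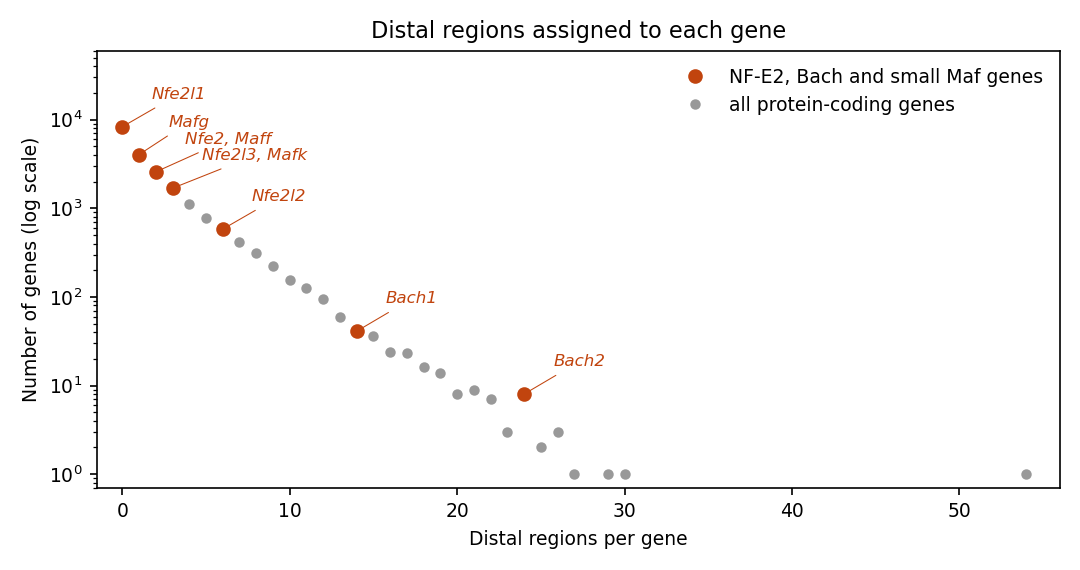
Number of protein-coding genes (vertical axis, log scale) with each number of distal regions (horizontal axis). Red points are the values at which the 9 genes lie, grey points the other values over all genes; Bach2 at 24 and Bach1 at 14 lie far to the right, and the gene with the most has 54.

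A gene with more room around its starts can collect more distal regions. Bach2 spans 347305 bp, and 371 kb of sequence was closest to its coding starts within the limit, against a median of 44.9 kb over all genes. Per megabase of such territory Bach2 had 64.6 distal regions, which lay at percentile 84.0 of all genes. Bach1 had 81.0 per megabase of its 173 kb, at percentile 89.9. Mafk, with only 21.8 kb, had the most of the 9 at 138 per megabase (percentile 98.1), followed by Nfe2 with 102 (percentile 94.5) and Mafg with 90.6 (percentile 92.6). Nfe2l2 had 70.7, Maff 56.9 and Nfe2l3 25.6 per megabase, against a median of 17.5 over all genes. By this measure 8 of the 9 genes lay above the median of all genes, and Nfe2l1 lay below it with none. The densities of Mafk, Nfe2 and Mafg rest on 3, 2 and 1 regions, and those of Nfe2 and Maff are 0 in either replicate's own list.

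The conservative list gives 1 signal value per peak on a scale the sources used here do not state, so values are set in order within a list only. By its strongest start region the order of the genes was Nfe2l1 and Nfe2l3 (13.2 each), Bach2 (10.2), Nfe2 (9.30), Mafk (7.73), Nfe2l2 (7.55), Maff (6.98), Bach1 (5.85) and Mafg (5.48). Among all genes with a start region these lay at percentile 76.3 for Nfe2l1, 76.1 for Nfe2l3, 47.0 for Bach2, 37.6 for Nfe2, 21.2 for Mafk, 19.7 for Nfe2l2, 14.7 for Maff, 6.45 for Bach1 and 4.60 for Mafg. So 7 of the 9 genes lay in the lower part of that order. With 1 value a replicate no test separates neighbours. In the replicates' own values below, Nfe2l3 was above Nfe2l1 in replicate 1 (12.4 against 11.8) and below it in replicate 2 (10.7 against 13.1). Bach2 and Nfe2 also changed order between the replicates, as did Nfe2l2 with Mafk and with Maff. The other orders held in both.

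Nfe2, the subunit of the NF-E2 complex that is largely limited to blood cells, lies on the minus strand of chr15:103248212-103258403 and had 3 start regions. The strongest, Nfe2 start 3 at chr15:103257962-103258804, peaked 131 bp upstream of an annotated start with a signal of 9.30 (percentile 60.6). It had a signal of 8.88 in replicate 1 and 9.81 in replicate 2, and passed the IDR threshold in both. The other two start regions lay inside the gene by alternative starts, 1 in an intron and 1 in a UTR, and were far weaker. Nfe2 start 1 had 3.76 in replicate 1 and 4.08 in replicate 2, and Nfe2 start 2 had 3.68 and 3.14. In each replicate the upstream region was thus the highest of the 3, and its values did not overlap those of the other two. Both distal regions, 1.83 and 2.23 kb upstream, were among the weakest of the 55, with signal percentiles of 1.68 and 0.134, and neither passed the threshold in a replicate's own list. The 200 bases on the summit of the strongest start region (chr15:103258434-103258633) and of the strongest distal region (chr15:103260133-103260332) are shown for their different strength. Neither window held a match to the NF-E2, AP-1, GATA, RUNX or PU.1 letters searched. The GATA letters were AGATAA only. The Nfe2 start 3 window holds TGATAA on the minus strand, which differs from them in its first base and was not searched. Sequences here and below are the plus strand of GRCm38.p6, with capitals for the matches named in the text.
Nfe2 start 3: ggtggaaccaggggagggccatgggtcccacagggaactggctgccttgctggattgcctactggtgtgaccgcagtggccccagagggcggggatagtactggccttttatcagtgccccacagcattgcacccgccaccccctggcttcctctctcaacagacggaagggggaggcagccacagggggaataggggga
Nfe2 distal 1: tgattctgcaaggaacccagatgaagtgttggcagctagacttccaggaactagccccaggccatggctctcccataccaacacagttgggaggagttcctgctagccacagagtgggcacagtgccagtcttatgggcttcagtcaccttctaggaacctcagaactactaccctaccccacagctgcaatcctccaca

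Nfe2l1 (Nrf1) is a membrane-bound factor of the endoplasmic reticulum known for raising proteasome genes when proteasomes are inhibited. Its gene on chr11:96817414-96829968 had 2 start regions and no distal region. One lay 168 bp upstream of an annotated start (signal 12.6, percentile 85.6) and the other in an intron, 141 bp upstream of an internal start (signal 13.2, percentile 88.5). The upstream region had 11.2 in replicate 1 and 13.1 in replicate 2, and the intronic one 11.8 and 12.9. The internal start was thus marked about as strongly as the upstream one, and the order of the pair differed between the replicates. Their −log10 p percentiles were 98.4 and 90.1.

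Nfe2l2 (Nrf2), held low by Keap1 until oxidants release it, had a single start region at chr2:75703384-75705418. With 2035 bp this was the widest of the 20, and it held 4 merged peaks. Its signal was 6.65 in replicate 1 and 8.14 in replicate 2. Within the conservative list its signal lay at percentile 40.0 and its −log10 p at percentile 94.0. Of its 6 distal regions, 3 lay in introns of Nfe2l2 and 3 between genes upstream. The strongest distal region, Nfe2l2 distal 6, was 58.9 kb upstream at chr2:75762972-75763717. It had 11.1 in replicate 1 and 12.9 in replicate 2, above the start region in both, and a −log10 p of 149 (percentile 95.3), the highest of the 55. Its summit window (chr2:75763410-75763609) held 2 matches to the RUNX letters TGTGGT, in capitals, 51 bases before and 50 bases after the summit.
Nfe2l2 distal 6: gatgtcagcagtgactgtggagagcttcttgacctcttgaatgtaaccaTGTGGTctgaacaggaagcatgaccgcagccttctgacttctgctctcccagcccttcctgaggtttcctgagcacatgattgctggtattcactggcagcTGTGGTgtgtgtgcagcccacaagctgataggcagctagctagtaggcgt

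Nfe2l3 (Nrf3), the CNC factor whose functions are least known, had 1 start region, with its summit 6 bp inside the transcript. It had 12.4 in replicate 1 and 10.7 in replicate 2. All 3 distal regions lay upstream, at 37.1, 48.5 and 69.9 kb, and none lay inside the gene. The outermost, Nfe2l3 distal 1, was the strongest with 10.4 in replicate 1 and 12.9 in replicate 2, so the start region was higher than it in replicate 1 and lower in replicate 2. The middle region had 8.83 and 9.15. The nearest had 6.11 and 5.95 and passed the threshold in neither replicate.

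**Figure D2:**
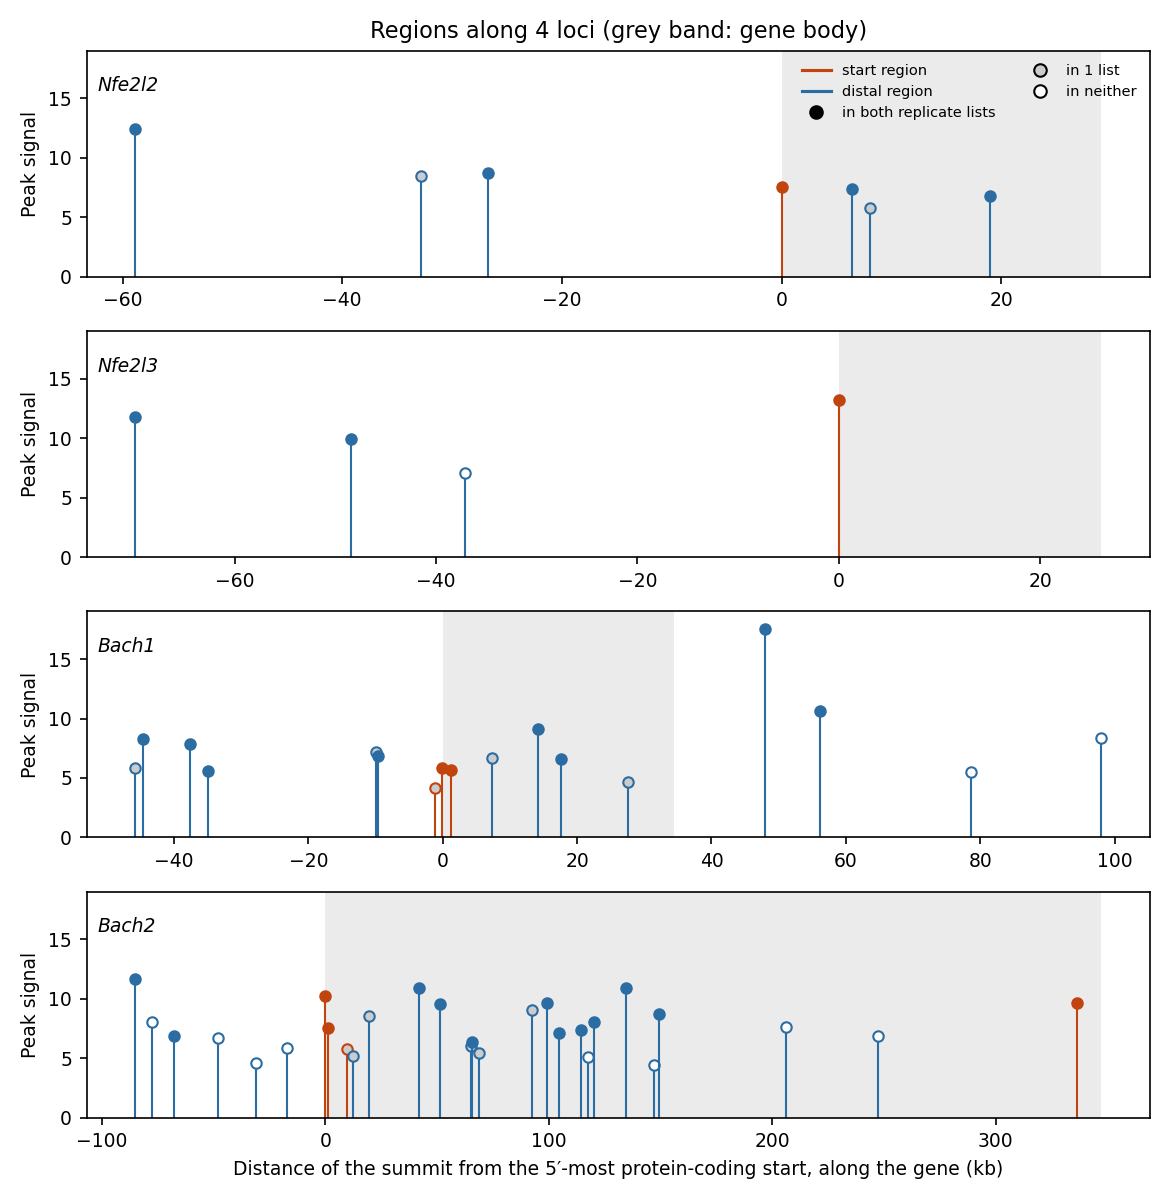
Peak signal in the conservative list (vertical axis) against distance of the summit from the 5′-most protein-coding start, along the gene (kb), for Nfe2l2, Nfe2l3, Bach1 and Bach2. Red marks start regions, blue distal regions, the grey band the gene body; filled points were in the IDR-thresholded lists of both replicates, grey points in 1 and open points in neither. Distal regions of Nfe2l3 lie upstream only, whereas those of Bach2 lie mostly inside its gene.

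Bach1, which leaves DNA when heme binds it, had 3 start regions and 14 distal ones around chr16:87698945-87733346. Its start regions were weak: Bach1 start 2, 113 bp upstream of the start, had 5.79 in replicate 1 and 5.63 in replicate 2. Bach1 start 3, in the first part of the gene, had 5.20 and 5.88, and Bach1 start 1 had 4.15 and 4.27. In both replicates Bach1 start 1 was thus the lowest, and the order of the other two differed between the replicates. Their −log10 p percentiles of 77.8 and 77.5 for start regions 2 and 3 stood well above their signal percentiles of 17.9 and 15.8. Distal regions of Bach1 lay in its introns (4), between genes (9) and inside a noncoding gene (1). The strongest of all 75 regions by signal was Bach1 distal 11, downstream of the gene at chr16:87746559-87747085 and 48.0 kb from the start, with a signal of 17.5 (percentile 98.6). It had 16.1 in replicate 1 and 15.0 in replicate 2, and no other region of the 9 genes reached these values in either replicate. Of its 200-base window, 76.5% is soft-masked as repeat sequence in the reference, where 3 of the 55 distal windows (5.45%) and 3.45% of all distal windows were at least 50% masked. How repeat sequence bears on its signal was not tested. The next strongest of Bach1, distal 12, lay 56.2 kb from the start and had 8.79 in replicate 1 and 10.8 in replicate 2.

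Bach2, a repressor needed for class switching and germinal centre reactions in B cells, had 4 start regions and 24 distal ones on chr4. Bach2 start 1, at chr4:32238298-32238822 and 137 bp upstream of the first start, had 9.21 in replicate 1 and 9.71 in replicate 2. Bach2 start 4 had nearly as much, 8.83 and 9.62, but lay in a coding exon near the far end of the gene at chr4:32575150-32575686. It counts as a start region, as does Bach2 start 3, through starts of transcripts without a coding sequence only. The nearest coding start of any gene lay 27.4 kb from Bach2 start 4 and was not one of Bach2. Bach2 start 2 had 6.87 and 7.07 and Bach2 start 3 had 5.54 and 5.65. The order of the 4 was therefore the same in both replicates.

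Of the 24 distal regions of Bach2, 18 lay in its own introns, 5 between genes upstream and 1 in a noncoding gene upstream. None matched the strength of Bach1 distal 11. The strongest was Bach2 distal 1, 85.3 kb upstream at chr4:32153407-32153677, with 10.8 in replicate 1 and 10 in replicate 2. Inside the gene the strongest were distal 9 with 9.35 and 10.3, and distal 20 with 9.13 and 11.2. In replicate 2 both intronic regions were above the upstream one, and in replicate 1 both were below it. At the other end distal 21 had 4.17 and 4.07. In all 17 of the 28 regions of Bach2 met the list of replicate 1, 17 that of replicate 2 and 14 both.

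The small Maf genes encode the shared partners and had 5 regions or fewer each. Mafg, on the minus strand of chr11:120625117-120633600, had 4 start regions of 221 to 361 bp. Mafg start 4, 74 bp upstream of a start, had 5.64 in replicate 1 and 4.67 in replicate 2. The other 3 lay inside the gene by alternative starts and had between 3.01 and 3.53 in replicate 1, and between 3.52 and 3.76 in replicate 2. Only Mafg start 4 passed the threshold in a replicate's own list, and only in replicate 1. Its 1 distal region, in a UTR of Mafg, had 3.65 and 4.80 and passed in both.

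Maff and Mafk had 1 start region each. That of Maff had 7.03 in replicate 1 and 6.22 in replicate 2, and spanned 1391 bp with 3 merged peaks. That of Mafk, 125 bp upstream of the start, had 7.08 and 8.08. Both Maff distal regions lay in the neighbour Tmem184b, 12.7 and 22.3 kb downstream of the nearest of the Maff starts (14497 and 24035 bp from the first), and passed the threshold in neither replicate. The further one, Maff distal 2, also had a noncoding start of Tmem184b within 1 kb. It had 5.94 in replicate 1 and 8.18 in replicate 2. Its summit window (chr15:79370556-79370755) is shown as the strongest distal one of Maff, with a match to the RUNX letters on the minus strand in capitals.
Maff distal 2: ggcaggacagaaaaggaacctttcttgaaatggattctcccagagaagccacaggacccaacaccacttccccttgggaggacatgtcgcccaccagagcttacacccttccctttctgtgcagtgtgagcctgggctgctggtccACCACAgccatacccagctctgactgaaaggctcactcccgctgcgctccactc

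Mafk had its strongest region not at its first start but 12794 bp downstream of it, and 6.79 kb from the nearest internal start, at chr5:139803668-139805123 in a UTR of Tmem184a. This region held 4 merged peaks and had 9.08 in replicate 1 and 11.3 in replicate 2, above the start region in both. No start region of the 9 genes came within 1 kb of a start of another protein-coding gene.

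**Figure D3:**
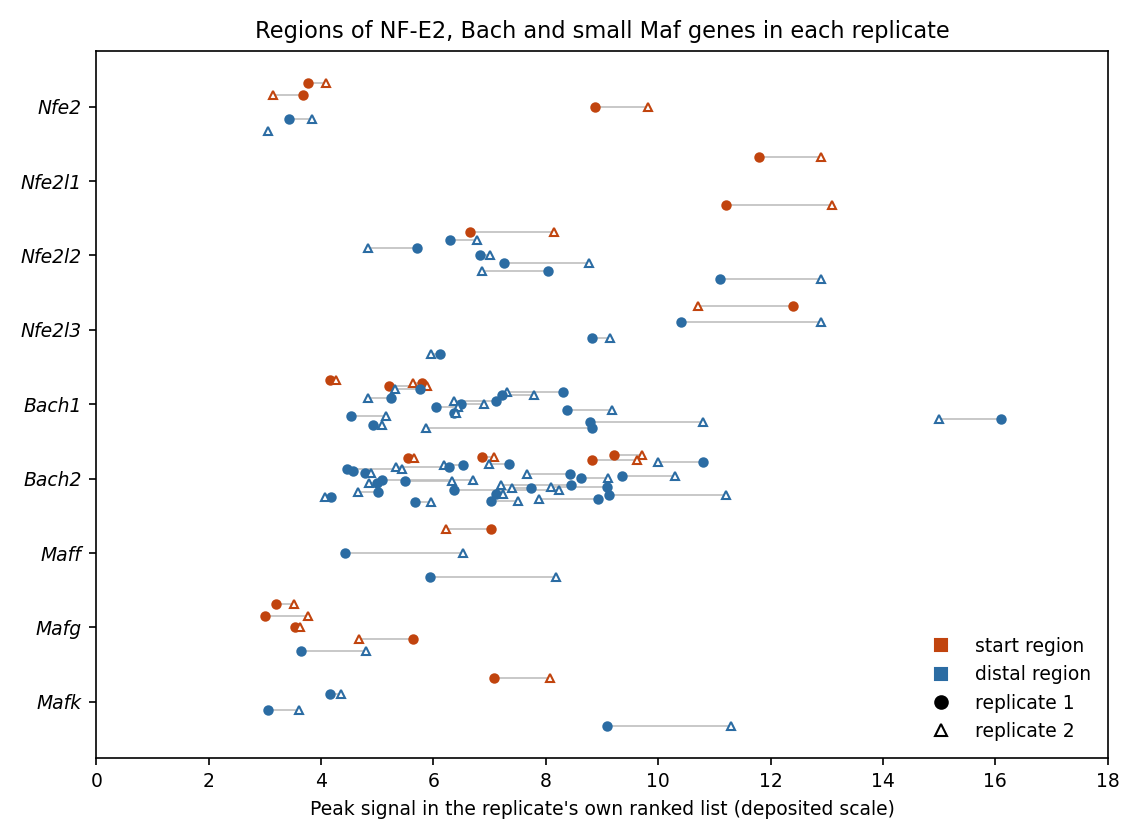
Peak signal of each of the 75 regions in the ranked list of replicate 1 (filled circles) and of replicate 2 (open triangles), by gene; red are start and blue distal regions, and a grey line joins the values of 1 region. Mafg and most Nfe2 regions lie at the low end, the Nfe2l1 start regions lie above 11 in both replicates, and Bach1 distal 11 stands apart at 16.1 and 15.0.

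In the ranked lists, which hold peaks before the IDR threshold, 74 of the 75 regions were met in each replicate, and 73 in both. Nfe2 distal 2 was missing from replicate 1 and Bach2 distal 6 from replicate 2. Over the 73 regions the Spearman correlation of the signal between replicates was 0.913, against 0.907 over 55009 start and distal regions of all genes. These regions share the 2 libraries and the choice of peaks, so the value describes how the order repeats and has no p. Replicate 1 was the higher in 26 of the 73 (35.6%), against 41.7% over all.

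In the replicates' own IDR-thresholded lists fewer were met. Of the start regions, 15 of 20 met the list of replicate 1 (75%, exact binomial 95% interval 50.9% to 91.3%), against 81.2% of all start regions. In replicate 2 it was 13 of 20 (65%, 40.8% to 84.6%), against 71.5%. Of the distal regions, 34 of 55 met the list of replicate 1 (61.8%, 47.7% to 74.6%), against 63.5% of all distal regions, and 33 met that of replicate 2 (60%, 45.9% to 73.0%), against 49.2%. Each of these 4 intervals holds the share over all regions of its class. The intervals cover counting error over regions only. They treat regions as independent, though Bach2 alone holds 24 of the 55 distal ones, so they do not test a difference from all regions. Over all 75 regions the shares were 65.3% in replicate 1 and 61.3% in replicate 2. They were 38.7% in replicate 1 and 61.3% in replicate 2 once the longer list of replicate 1 was shortened, by signal, to the length of the other. This cut took the weakest regions from replicate 1 only. In its list the regions of these genes had median signal percentiles of 24.9 (start) and 27.6 (distal). The share over all regions after the same cut is not given here, so the turned order cannot compare the replicates. Both lists held 12 start and 28 distal regions, and neither held 4 start and 16 distal ones. Among the 4 start regions in neither list were 3 of Mafg and 1 of Nfe2.

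The lists also give a −log10 p for each peak, and here the start regions ranked otherwise than by signal. Their median −log10 p percentile was 72.0, against 73.9 for all start regions, whereas the signal medians were 25.3 and 56.7. Start regions below percentile 50 by signal and above it by −log10 p numbered 8 of 20 (40%), against 16.1% of all start regions. They included the Nfe2l2, Mafk and Maff start regions and start regions 2 and 3 of Bach1. The distal regions had a median −log10 p percentile of 44.7, against 44.2 for all distal regions. How the authors' caller computed the pair of measures is not given in the sources used here. GC content at the summit had a median of 64.0% in the start regions, against 61.5% in all, and of 52.5% in the distal regions, against 50%. A start region of the 9 genes had a median of 1.5 other regions within 5 kb, against 0 for all start regions.

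**Figure D4:**
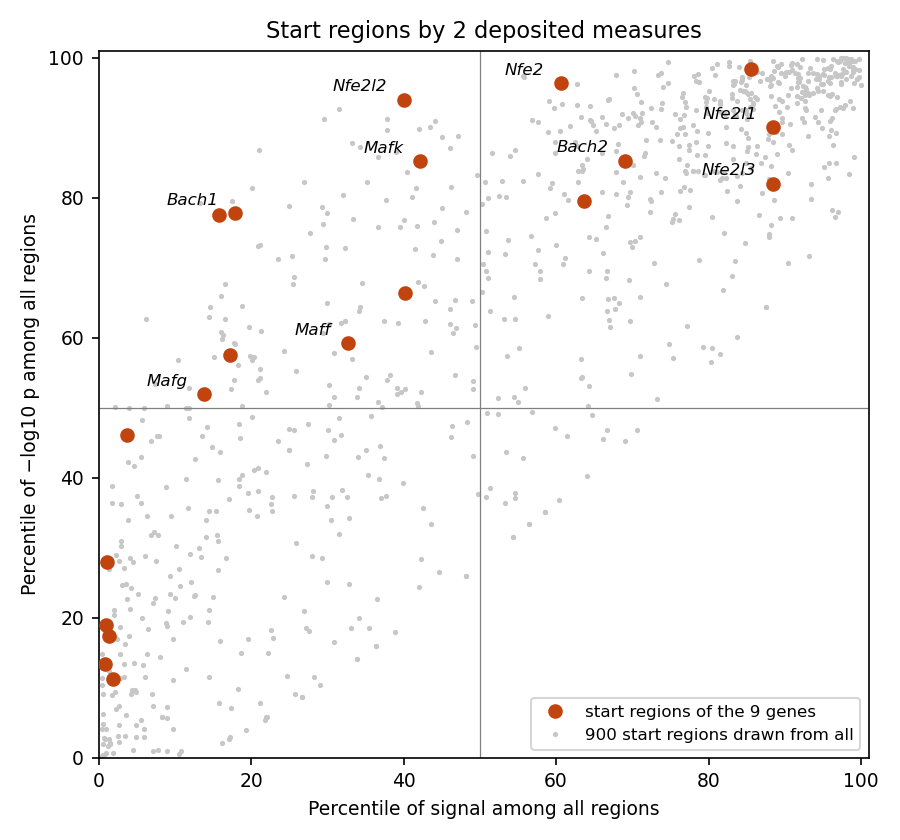
Percentile of −log10 p (vertical axis) against percentile of signal (horizontal axis) among all regions of the list, for the 20 start regions of the 9 genes (red; the strongest of each gene is named) and for 900 start regions drawn at random from all (grey). Lines mark percentile 50; 8 red points lie in the upper left, where signal is low and −log10 p high.

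Since these factors bind known sites, the 200 bases on each summit were searched on both strands for fixed letters. The NF-E2 letters GCTGAGTCA contain the AP-1 letters TGACTCA on the other strand and also fit the antioxidant element TGACNNNGC, so a match to the first is a match to all 3. The NF-E2 letters fix G at the centre of the core, and the same letters with C there were not searched. NF-E2 letters lay in 1 of the 20 start windows, against 0.599% of all start windows, and in 0 of the 55 distal windows, against 1.49% of all distal windows. The single match was in Bach1 start 3, in an intron of Bach1, 19 bases before the summit. Its window (chr16:87700022-87700221) is shown for that match, and was chosen after its values were seen.
Bach1 start 3: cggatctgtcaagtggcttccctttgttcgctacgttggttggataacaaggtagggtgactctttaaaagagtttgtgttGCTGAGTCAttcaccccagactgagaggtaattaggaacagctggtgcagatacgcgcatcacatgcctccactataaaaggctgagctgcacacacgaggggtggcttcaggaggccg

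AP-1 letters lay in that 1 start window (3.53% of all start windows) and in 5 distal windows, 9.09% against 7.45% of all distal windows. These 5 were Nfe2l2 distal 1, Bach1 distal 8, Bach2 distal 4, Bach2 distal 7 and Mafk distal 2, all but Bach2 distal 4 in an intron of the gene itself. They are shown with 20 bases on each side, AP-1 letters in capitals, at chr2:75685585-75685631, chr16:87713163-87713209, chr4:32190652-32190698, chr4:32251205-32251251 and chr5:139795024-139795070. The bases next to the core differ between them, and none completes the NF-E2 letters searched. In Bach1 distal 8 GC follows the core, so that on the minus strand GC comes before it, as in the NF-E2 letters. That stretch differs from the NF-E2 letters only in the centre base of the core, C in place of G. This form was not searched, so the count of distal windows with NF-E2 letters leaves the stretch out.
Nfe2l2 distal 1: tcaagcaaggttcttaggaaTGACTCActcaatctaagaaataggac
Bach1 distal 8: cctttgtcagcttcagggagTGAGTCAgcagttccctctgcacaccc
Bach2 distal 4: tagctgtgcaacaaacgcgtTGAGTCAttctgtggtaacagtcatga
Bach2 distal 7: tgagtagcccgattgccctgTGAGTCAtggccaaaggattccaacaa
Mafk distal 2: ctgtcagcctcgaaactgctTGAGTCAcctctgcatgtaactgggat

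Bach1 distal 8 was the strongest of these, with 8.37 in replicate 1 and 9.17 in replicate 2, and its AP-1 letters began 6 bases after the summit. Mafk distal 2 was among the weakest regions of the 9 genes, with 3.05 and 3.60. Antioxidant letters lay in 3 start windows, against 11.4% of all start windows, and in 5 distal windows, against 11.4% of all distal windows. Apart from Bach1 start 3, the start windows with them were Mafg start 1 and Mafg start 4. The distal ones were in Bach1 distal 3 and 13, Bach2 distal 10 and 13, and Mafk distal 2. CRE letters, the core that CREB and ATF factors bind, lay in 2 start windows, against 2.37% of all start windows. These were the start regions nearest the first start of Bach2, and of Maff, shown with flanks at chr4:32238667-32238714 and chr15:79347471-79347518.
Bach2 start 1: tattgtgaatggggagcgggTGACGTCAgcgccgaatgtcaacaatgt
Maff start 1: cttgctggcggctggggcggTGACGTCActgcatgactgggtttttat

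GC-box (SP) letters GGGCGG lay in 8 of the 20 start windows, against 47.5% of all start windows, and NFY letters CCAAT in 2, against 28.8%. Both NFY matches lay in the 2 start regions of Nfe2l1. Among factors of blood progenitors, GATA letters AGATAA lay in 10 of 55 distal windows (18.2%), against 13.9% of all distal windows. RUNX letters TGTGGT lay in 17 (30.9%), against 29.6%, and PU.1 letters GAGGAAGT in 6 (10.9%), against 9.38%. C/EBP letters TTGCNNCAA lay in 0, against 1.74%. Bach2, with 24 of the 55 regions, held 8 of the 10 GATA matches. At least 1 of GATA, RUNX and PU.1 was matched in 30 of the 55 distal windows (54.5%), against 45.1%. At least 2 of them were matched in 3 of the 55, against 7.54%. A match is a description of letters and not a bound site, and no match says only that these letters are absent from the window.

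**Figure D5:**
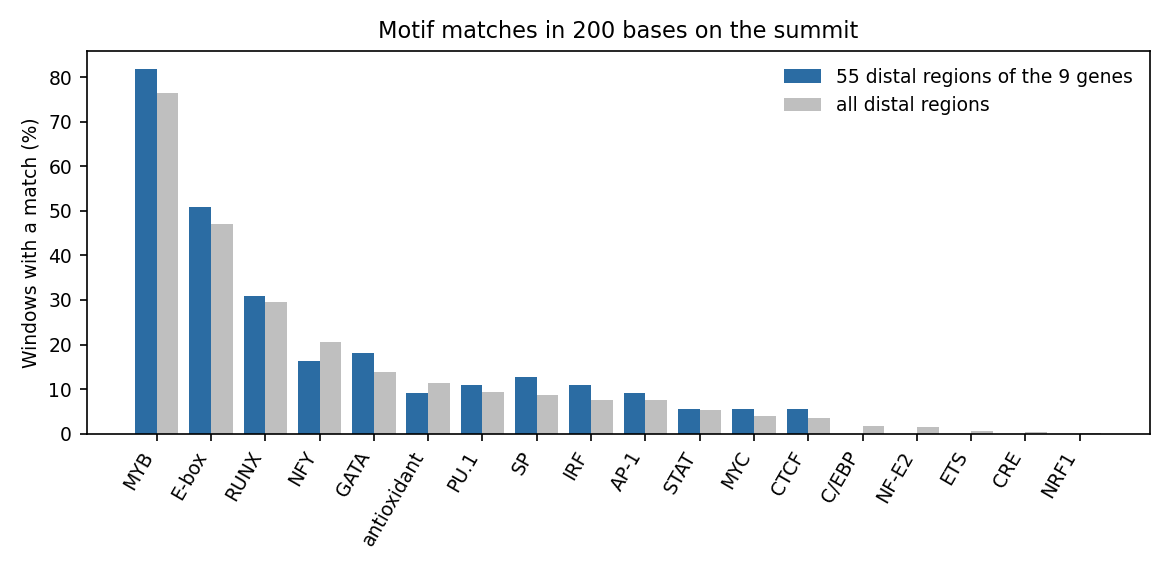
Share of 200-base summit windows with a match to each of the 18 motifs searched (vertical axis, %), for the 55 distal regions of the 9 genes (blue, left bar) and all 41448 distal regions (grey, right bar). NF-E2, C/EBP, ETS, CRE and NRF1 have no blue bar, and for RUNX the bars stand at 30.9% and 29.6%.

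The CTCF letters fixed at the start, AGNGGGCGC, lay in 3 distal windows, against 3.58% of all distal windows. A longer core was added after the data had been seen, CC, 3 bases of any kind, then AGNGGGC, since CTCF, the insulator factor, binds a long site. It lay in 5 distal windows (9.09%), against 10.3%. Those 5 had a median signal percentile of 80.3 (57.7 to 98.6), against 31.6 in the other 50. Since the core was chosen with the data known, the contrast of 5 with 50 cannot test a link with signal. Over all distal regions the medians were 52.3 with the core and 46.2 without. The core lay in 10.9% of the strongest 10% of all distal regions by signal, against 10.3% of all. Among start regions Nfe2l2 start 1 held the core, at percentile 40.0. The 5 distal regions included the strongest one of Bach1, of Bach2 and of Nfe2l3, which lay 48.0, 85.3 and 69.9 kb from the start. These 3 are shown as 200-base windows (chr16:87746830-87747029, chr4:32153436-32153635 and chr6:51362669-51362868), with the core in capitals. In Bach2 distal 1 the second stretch of capitals is a match to the GATA letters.
Bach1 distal 11: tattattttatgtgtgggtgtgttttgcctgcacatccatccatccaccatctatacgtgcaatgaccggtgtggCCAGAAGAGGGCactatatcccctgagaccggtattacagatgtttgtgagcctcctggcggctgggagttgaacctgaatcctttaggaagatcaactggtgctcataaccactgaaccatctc
Bach2 distal 1: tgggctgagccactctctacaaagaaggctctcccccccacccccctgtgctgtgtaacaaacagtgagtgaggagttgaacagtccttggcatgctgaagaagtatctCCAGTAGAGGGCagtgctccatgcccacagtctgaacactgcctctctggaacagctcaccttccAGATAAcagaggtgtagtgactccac
Nfe2l3 distal 1: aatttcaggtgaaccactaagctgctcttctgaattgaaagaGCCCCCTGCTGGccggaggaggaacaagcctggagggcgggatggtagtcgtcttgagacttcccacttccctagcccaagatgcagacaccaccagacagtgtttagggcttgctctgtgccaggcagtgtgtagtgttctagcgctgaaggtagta

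The other two with the core, Bach1 distal 12 at chr16:87755060-87755099 and Bach2 distal 14 at chr4:32331102-32331141, are shown as 40 bases. In Bach1 distal 12 the core was 23 bases before the summit. In Bach2 distal 14 it was 6 bases after it.
Bach1 distal 12: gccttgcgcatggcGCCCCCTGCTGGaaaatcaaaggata
Bach2 distal 14: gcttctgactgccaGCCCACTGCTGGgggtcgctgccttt

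Of the 55 distal regions in all, 26 lay in an intron of the gene itself, 22 between genes, 3 inside noncoding genes, 3 in UTRs and 1 in an intron of another gene. At the limits of the rule, the start regions just inside the 1 kb limit were Mafg start 3, with its edge 786 bp away and a signal of 3.63, and Bach1 start 3, 789 bp away with 5.66. Just outside it were Mafk distal 1, 1643 bp away with 4.40, and Nfe2 distal 1, 1691 bp away with 3.71. At the 100 kb limit Bach1 distal 14 lay just inside, at 98032 bp with a signal of 8.40. The next regions outside were 1 of Bach2 at 101356 bp with 11.7, 1 of Bach1 at 142189 bp with 14.9 and 1 of Nfe2l3 at 161624 bp with 10.9. There were 13 such regions beyond the limit. Less strict lists added regions around the same genes: the list of replicated peaks gave Bach2 47 distal regions, Bach1 22 and Nfe2l3 10, and gave Nfe2l1 2.

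Genes that act with these factors were read by the same rule. All 10 listed regulators of CNC proteins had a start region in the conservative list and in both replicate lists. Among genes with a start region their strongest had a median signal percentile of 44.9. The highest were Btrc (15.4, percentile 90.6), Fbxo22 (13.4, percentile 78.4), Cul3 (11.7, percentile 62.8) and Rbx1 (11.4, percentile 59.0). Btrc is a ubiquitin ligase subunit that binds phosphorylated Nfe2l2, and Fbxo22 is a ligase subunit for Bach1. Cul3 is the scaffold of the ligase in which Keap1 binds Nfe2l2, and Rbx1 is its RING partner. All 31 proteasome genes, known targets of Nfe2l1, had one in all 3 lists with a median percentile of 77.5. Psmd6 (18.2), Psmd12 (17.6), Psma4 (17.4) and Psmd2 (17.1) led them.

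All 11 antioxidant and heme genes known as targets of Nfe2l2 and Bach1 had a start region, and 11 did in replicate 1 and 10 in replicate 2, with a median percentile of 34.6. The highest were Hmox1, which breaks down heme (12, percentile 65.0), the cystine carrier Slc7a11 (11.5, percentile 60.2), the sulfiredoxin gene Srxn1 (11.3, percentile 58.2) and the quinone reductase gene Nqo1 (10.5, percentile 50.5). All 3 platelet genes known as Nfe2 targets had one, Rab27b with 12.4, Tbxas1 with 11.5 and Tubb1 with 5.06, and Tubb1 met neither replicate list. Of the large Maf genes, Mafa (14.3) and Maf (8.46) had one and Nrl had none. These counts stand beside the 63.5% of all genes with a start region and are descriptions.

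As a check of the labelled cells, all 8 listed progenitor genes had a start region, against 63.5% of all genes. Flt3 (11.0), Kit (8.94), Cebpa (8.22) and Spi1 (8.20) led them, and 7 of the 8 met each replicate list. The gene missing was the same in both. Among genes with a start region, the strongest ones of the 8 had a median signal percentile of only 24.6. The lowest lay at percentile 2.24. Among marker genes of lymphocytes, granulocytes, red cells and platelets, Pf4, a platelet gene, had a start region (7.55, percentile 19.7). Cd79a, Cd3e, Cd4, S100a8, Ltf, Slc4a1 and Ly6g had none. In a bulk library a region open in few cells and one that is little open in all cannot be told apart. The replicate lists held 46420 regions in replicate 1 and 36740 in replicate 2, of which 52 and 47 were assigned to the 9 genes.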

How the data were processed

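Open chromatin of mouse common myeloid progenitors was measured by ATAC-seq in 2 libraries and used as narrow peak lists on mm10, per the labels. The aligner and the caller were not given in the sources used here. Each deposited peak has a signal value of unstated scale, used to rank regions within a list, and a −log10 p from the authors. The score in the deposited ranked lists served to check the threshold: the conservative list held peaks with a score of at least 540. Read counts are not part of the lists, so the depth per library is unknown and no test was run between the replicates. Replicate values come from each replicate's own ranked and thresholded lists.

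Peaks were merged and classed with Python 3.11.15, pandas 2.3.3 and NumPy 2.4.6 against GENCODE M21 starts and the GRCm38.p6 sequence, on chromosomes 1 to 19. A replicate list met a region by at least 1 bp, with exact intervals from SciPy 1.17.1. Territory is the sequence nearest to a coding start of a gene within 100 kb. Classing, merging and motif search were tested on simulated data. The members and lists were chosen with earlier results of these data known. Named are all 9 genes, any of their regions, and from each list the genes with no start region and up to 4 with the strongest. Some list genes are not reported here. Windows are shown of the strongest Nfe2 start region and of strongest distal regions outside UTRs. Alternatives were other lists, either replicate alone, other windows and limits, and unmerged peaks.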

Additional observations from a re-analysis of the deposited data

How the results depend on the processing

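All 9 genes had a start region under the other series lists, coding starts only and other start windows, and 4 did among the upper 50% of regions by signal, which also left 6 start and 18 distal regions (2.00 a gene). Leaving out 1 replicate gave 8 to 9 genes, 14 to 15 start regions, 33 to 37 distal regions (3.67 to 4.11 a gene), and median signal percentiles of 24.9 to 28.7 for start and 22.4 to 27.6 for distal regions. Distal regions numbered 100 (11.1 a gene) in the list of replicated peaks, 98 (10.9) in that of pseudoreplicated peaks, 195 (21.7), with 31 start regions, in the archived list of replicated peaks, and 36 (4 a gene) with a limit of 50 kb. Unmerged peaks gave 31 start and 87 distal peaks. The share met in a replicate was 98.7% for both replicates in their pseudoreplicated lists. It was 38.7% for replicate 1 against 61.3% for replicate 2 when each replicate gave equally many of its strongest regions. Equal numbers shortened the list of replicate 1 only, so these shares do not compare the replicates. Windows of 100 bases gave 1 CRE match in start regions and 3 antioxidant, 6 GATA, 9 RUNX and 2 PU.1 matches in distal regions. Windows of 300 bases gave 8 AP-1 and 26 RUNX matches, and the longer CTCF core, added after the data were seen, 5 matches. In all 31 of the alternative values moved and 74 did not. The cause was not tested beyond what each construction implies: longer lists and wider windows hold more. No paired analysis was possible because the series has 1 group. Depth is unknown and limits of detection cannot be given.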
